A study of Lactuca sativa with 12 samples.

Results

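The genes described here are 6 lettuce (Lactuca sativa) genes with products in ribosome biogenesis or in the unwinding of RNA or DNA, out of 23933 genes in the expression table. They were Lsat_1_v5_gn_1_62020.3, described as a probable nucleolar protein 5-2 (NOP5-2), Lsat_1_v5_gn_3_96881.1, the U3 small nucleolar ribonucleoprotein protein IMP3, Lsat_1_v5_gn_2_125961.3, the ribosome biogenesis protein NOP53, Lsat_1_v5_gn_2_42041.3 and Lsat_1_v5_gn_1_13001.1, the DEAD-box RNA helicases 13 (RH13) and 5 (RH5), and Lsat_1_v5_gn_3_32320.2, the DNA helicase PIF1. The number after gn is the linkage group, and other genes are given in the study's short form, such as Ls1g62020.3 for the first. RH5 and NOP5-2 lie on group 1, NOP53 and RH13 on group 2, and IMP3 and PIF1 on group 3. The members were picked from genes that the study placed in its group G3, the cold-regulated (COR) genes with their peak at 7 d. Only part of the study's gene descriptions was at hand. In it, 3 members are the G3 genes of largest 7 d change with a ribosomal, nucleolar or rRNA term. The other 3 are those of largest change among the G3 genes described as helicases. G3 genes of ribosome biogenesis without these terms were not ranked there, and some changed more than NOP53. An example is WD repeat-containing protein 43 (WDR43), with a log2 fold change of 1.79 at 7 d against 0 h. Since the study formed its groups by clustering the transcript levels of COR genes over these same libraries, the change at 7 d against 0 h and the whole course over time entered the choice. Every difference between time-points is therefore given below as description, in part with its standard error. Counts of genes past a threshold are given as description too, and are not read as tests. NOP53, with a log2 fold change of 1.33, lay just inside the first choice, and the MKI67 FHA domain-interacting nucleolar phosphoprotein, with 1.31, just outside it. RH5, with 1.21, lay just inside the helicase choice, and RH29, with 1.19, just outside it.

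RNA-seq was done on the aerial tissue of the cultivar Salinas, with 3 replicates at each of 4 time-points. The 0 h plants were 18 days old and had grown at 20 °C under 350 to 400 µmol m-2 s-1 of light. The 4 h, 24 h and 7 d plants came from the same growth conditions and were then kept at 4 °C and about 100 µmol m-2 s-1, and all groups had a 16-h photoperiod. Temperature and light changed together, the 7 d plants were older at harvest than the 0 h plants, and the hour of sampling was not given, so that cold, light, age and time of day cannot be told apart. Levels are CPM, the reads of a gene per 1000000 reads of its library. Libraries held 18609189 to 25952306 reads, and each member had 307 to 6459 reads in a library. The counting error, taken from the mean reads of the 3 replicates of a time-point, was 1.34 to 5.54% (CV). Because CPM is not divided by gene length, levels were compared between time-points within a gene and not between genes.

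Ribosomes are assembled in the nucleolus, where a long precursor RNA is cut, chemically modified and folded with ribosomal proteins into a small and a large subunit. Small nucleolar ribonucleoproteins (snoRNPs) guide the modification and the first cuts, assembly factors hold the intermediates, the RNA exosome trims precursor ends, and DEAD-box helicases remodel RNA and RNA-protein contacts along the way. In Arabidopsis, several of these factors are needed for growth in the cold. NOP5-2 is a plant form of NOP58, which with NOP56 forms the protein core of box C/D snoRNPs that methylate rRNA. IMP3 binds the U3 snoRNP, which in yeast is needed for the early cuts that release the small-subunit RNA. NOP53 in yeast acts late in large-subunit maturation and brings the exosome to its substrate. RH13 is related to yeast Mak5, a helicase of large-subunit assembly. RH5 is known in Arabidopsis as STRS1, a suppressor of stress responses. PIF1 unwinds DNA at telomeres and replication forks in yeast and is no RNA helicase, so 5 of the 6 genes match the common description of ribosome biogenesis or RNA helicase genes.

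All 6 genes had higher levels in each 24 h library than in each 4 h library, as did 27% of all genes tested. The size of the step ran from 1.21-fold for PIF1 to 1.86-fold for NOP5-2. NOP5-2 and IMP3 were near their 0 h level at 4 h and differed from it mostly afterwards. RH13 was 1.24-fold its 0 h mean at 4 h (1.12-fold without 0 h replicate 3), with overlapping libraries, and differed mostly afterwards. NOP53 and RH5 were already above every 0 h library at 4 h, as were 22.6% of all genes tested. PIF1 had its main step only after 24 h. The plot of levels by library shows these courses.

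**Figure D1:**
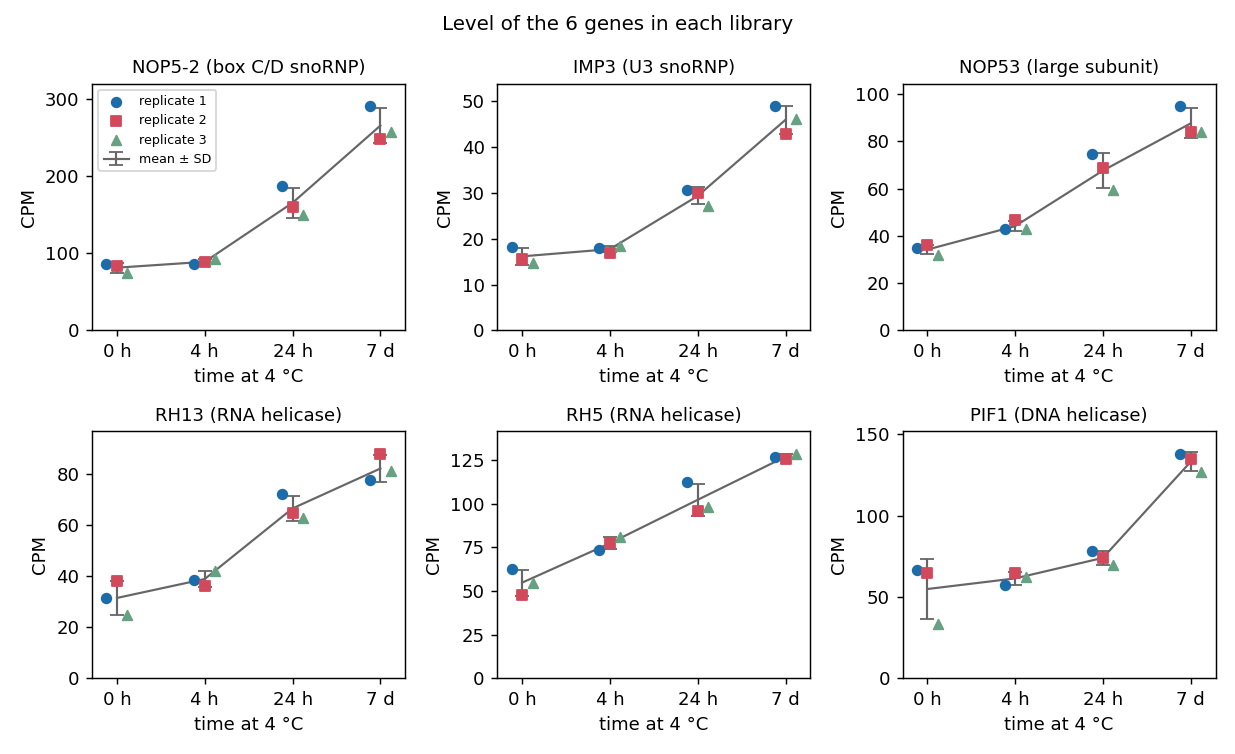
Level in CPM (linear axis from 0) of each of the 6 genes in the 12 libraries, by time at 4 °C. Symbols are the 3 replicates of a time-point, and lines and bars are the mean ± SD. PIF1 replicate 3 at 0 h (33.3 CPM) lies below the other 0 h libraries (66.3 and 64.9 CPM), and every gene is highest at 7 d.

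1 library stood apart. The third 0 h library correlated with the other 0 h libraries at r = 0.976 to 0.979 over genes tested, against 0.990 to 0.995 for the other 10 pairs of replicates, and 758 genes in it lay over 2-fold from the mean of the other replicates, against 15 to 124 in the other libraries. Its factor by the trimmed mean of M values (TMM), which rescales a library by the bulk of its genes, was 0.877, against 0.973 to 1.11 in the others. It held the lowest 0 h level of 5 of the 6 members, all but RH5, and of 2 members after TMM scaling. Comparisons with 0 h are therefore plotted with and without it, and the text gives values without it for part of the genes. The photosynthetic leaf list (8 Rubisco small chain and chlorophyll a-b binding protein genes) was expressed in every library, with a summed level of 38552 to 41129, 36229 to 37475, 25503 to 29039 and 11153 to 11504 CPM in order of time. The cold list (5 dehydrin and cold-shock protein genes) summed to 5.94 to 7.62, 27.7 to 28.4, 1309 to 1483 and 275 to 376 CPM in the same order. Both lists were drawn from the study's COR genes on these libraries, so their changes over time are no independent check of the labels.

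Among the snoRNP members, NOP5-2 had 86.1, 84.2 and 74.3 CPM in the 0 h libraries and 85.8, 89.1 and 92.7 CPM at 4 h. It had 188, 160 and 150 CPM at 24 h and 291, 249 and 258 CPM at 7 d. The 0 h and 4 h libraries thus overlapped, and the 24 h and 7 d libraries formed separate, higher groups. The means were 81.6 ± 6.36, 89.2 ± 3.49, 166 ± 19.7 and 266 ± 22.4 CPM (SD, n = 3) in order of time, and the 7 d mean was 3.26 times the 0 h mean, the largest fold of the 6 genes. From 4 h to 24 h the level of NOP5-2 was higher by 0.88 on the log2(CPM + 1) scale (SE 0.112).

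IMP3, the least covered member, had 18.3, 15.5 and 14.6 CPM at 0 h and 17.8, 16.9 and 18.3 CPM at 4 h. Its 24 h libraries had 30.7, 30.0 and 27.1 CPM and its 7 d libraries 48.8, 42.7 and 45.9 CPM. As for NOP5-2, only the 0 h and 4 h groups overlapped. The step from 4 h to 24 h was 0.69 (log2, SE 0.105), and the 7 d mean was 2.84 times the 0 h mean. The ratio of IMP3 to NOP5-2 within a library, which no scaling can change, was 0.197 ± 0.0140, 0.198 ± 0.00918, 0.177 ± 0.0127 and 0.172 ± 0.00539 in order of time (SD, n = 3). The ratio thus moved little beside the 2.84-fold difference of IMP3 itself.

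NOP53, the large-subunit factor, had 34.7, 35.9 and 32.0 CPM at 0 h and 42.7, 46.6 and 43.04 CPM at 4 h. It had 74.6, 68.6 and 59.6 CPM at 24 h and 94.9, 84.1 and 83.7 CPM at 7 d. No pair of neighbouring time-points overlapped, and from 24 h to 7 d this held for all 6 members, as it did for 34.4% of all genes tested. The step from 4 h to 24 h was 0.60 (log2, SE 0.107). That from 24 h to 7 d was 0.37 (SE 0.107), and 0.25 under TMM scaling.

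Of the helicases, RH13 had 31.5, 38.3 and 24.7 CPM at 0 h and 38.4, 36.3 and 42.2 CPM at 4 h, so that these groups overlapped. The third 0 h library was again the lowest. At 24 h it had 72.1, 64.9 and 62.9 CPM, and at 7 d 77.7, 88.0 and 81.1 CPM. The 4 h to 24 h step was its main one, at 0.76 (log2, SE 0.140). The difference between 24 h and 7 d was 0.30, with an SE of 0.140, and of 0.102 without the third 0 h library. Under TMM scaling it was 0.18, not far above the first of these errors.

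RH5 had 62.5, 47.6 and 54.3 CPM at 0 h and 73.6, 77.7 and 80.7 CPM at 4 h, the largest early difference of the 6 genes (log2 0.50, SE 0.111). It then had 113, 95.8 and 98.4 CPM at 24 h and 127, 125 and 129 CPM at 7 d. Its 4 time-points did not overlap in CPM, but under TMM scaling the lowest 7 d library (113.4 CPM) was below the highest 24 h library (114.3 CPM). The step from 4 h to 24 h was 0.40 (log2, SE 0.111, 95% interval 0.15 to 0.64). Its early difference against 0 h lay within that interval, and under TMM scaling the values were 0.40 for this step and 0.44 for the early one.

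PIF1, the DNA helicase, had 66.3, 64.9 and 33.3 CPM at 0 h, the widest spread of any member at any time-point (CV 34.1%, against at most 21.5% for the others). It had 57.2, 64.7 and 62.3 CPM at 4 h, and 78.5, 74.1 and 69.4 CPM at 24 h. At 7 d it had 138, 135 and 127 CPM, far above every earlier library. The 4 h to 24 h step was 0.27 (log2, SE 0.204, 95% interval -0.18 to 0.71). Without the third 0 h library, whose spread enters the error of the fit, the SE of this step was 0.0828. The difference from 24 h to 7 d was 0.84 (SE 0.204), and 0.72 under TMM scaling, the largest of the members over that interval.

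Counted together, 4 of the 6 members, NOP5-2, IMP3, NOP53 and RH13, lay past an adjusted p of 0.01 upward at 24 h against 4 h in the limma fit, where 9.32% of the 22306 genes tested did so upward and 11.7% downward. RH5 was past it as well with DESeq2 on the recovered reads, and in limma without the first 0 h library, and PIF1 was past it in no setting tried. In limma, edgeR and DESeq2 alike, 0 of the 6 also reached 2-fold, which 2.5% of all genes did upward in limma. Because the 4 h and 24 h levels entered the grouping from which the genes were picked, these counts describe the members and are read against no background. All 6 members were higher with no overlap of the groups, as were 27% of all genes. The median log2 fold change of the members was 0.65, and that of all genes tested was -0.01. All 6 genes had passed the filter on low values, which asked for 0.5 CPM in 2 libraries.

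Against 0 h, where the genes were chosen, the differences were as follows. At 4 h the log2 fold changes ran from 0.13 for NOP5-2 and IMP3 to 0.50 for RH5, and only NOP53 and RH5 did not overlap with 0 h, as 22.6% of all genes tested did not in this direction. Without the third 0 h library the 4 h value of PIF1 changed sign, from 0.22 to -0.10. At 24 h the values were 1.01 for NOP5-2, 0.83 for IMP3, 0.96 for NOP53, 1.08 for RH13, 0.89 for RH5 and 0.49 for PIF1, and 2 of them, NOP5-2 and RH13, were called at 2-fold, as 5.99% of all genes were. Without the third 0 h library both were below 2-fold, at 0.95 and 0.92, and under TMM scaling NOP5-2 was too, at 0.96. All 6 were clear of the 0 h libraries, as 28.5% of all genes were. Without the third 0 h library PIF1 was only 0.17 above 0 h at 24 h.

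At 7 d the log2 fold changes against 0 h were 1.69 for NOP5-2, 1.46 for IMP3, 1.33 for NOP53, 1.38 for RH13, 1.21 for RH5 and 1.33 for PIF1. These correspond to 2.32-fold for RH5 to 3.26-fold for NOP5-2, and all 6 genes were called and did not overlap, as the choice of the genes fixes (6.81% and 37.5% of all genes). The median over all genes at 7 d against 0 h was 0.15 in CPM and 0.02 after TMM scaling, and the median over the members was 1.35 and 1.19. With TMM scaling and without the third 0 h library together, the values ran from 0.87 for PIF1 to 1.49 for NOP5-2. Of the 6 genes, PIF1 was the one below 2-fold there. In CPM its 7 d level was 2.43 times the 0 h mean with that library and 2.03 times without it. The reference genes that the study used for qRT-PCR had 77.6 ± 8.80 CPM at 0 h and 105 ± 2.14 CPM at 7 d for EIF2a (Ls6g95581.1), and 40.1 ± 6.73 and 50.9 ± 0.576 CPM for IPP2 (Ls2g17540.1), smaller differences than those of the members.

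**Figure D2:**
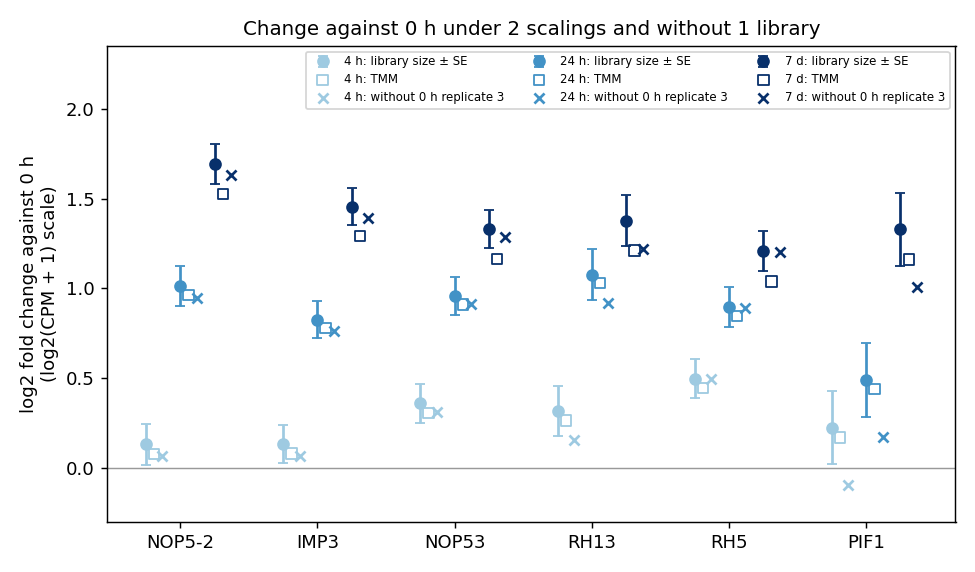
Log2 fold change against 0 h on the log2(CPM + 1) scale for each gene at 4 h, 24 h and 7 d. Filled points with bars are the values in CPM ± SE, open squares those after TMM scaling and crosses those without 0 h replicate 3. PIF1 moves most without that library, from 0.22 to -0.10 at 4 h and from 1.33 to 1.01 at 7 d.

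The members differed in timing. As a share of the 7 d change on the log2 scale, 7.67% was present at 4 h for NOP5-2 and 9.04% for IMP3. The corresponding share was 16.8% for PIF1, 22.9% for RH13, 27.0% for NOP53 and 41.2% for RH5. Without the third 0 h library these shares were -9.61% for PIF1, 3.99% for NOP5-2, 4.88% for IMP3, 12.9% for RH13, 24.3% for NOP53 and 41.1% for RH5. RH5 thus had the highest early share either way, whereas the lowest was that of NOP5-2 with the library and that of PIF1 without it. By 24 h the share was 56.8% for IMP3, 59.7% for NOP5-2, 72.0% for NOP53, 74.0% for RH5 and 78.2% for RH13. PIF1 stood below all of them with 36.8%, and with 16.8% when the third 0 h library was left out. Under TMM scaling the 24 h shares were 60.4% for IMP3, 63.1% for NOP5-2, 78.2% for NOP53, 81.3% for RH5, 85.0% for RH13 and 38.0% for PIF1, so that the order of the genes was the same.

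Ratios within a library, which are free of scaling, showed the same differences in course. The ratio of RH5 to NOP5-2 was 0.674 ± 0.0944, 0.867 ± 0.00778, 0.618 ± 0.0330 and 0.479 ± 0.0379 in the same order (SD, n = 3). It was thus highest at 4 h, when NOP5-2 was still near its 0 h level. The ratio of NOP53 to NOP5-2 had the same shape, with 0.420, 0.495, 0.408 and 0.329. For RH13 the means were 0.384, 0.436, 0.403 and 0.312, also highest at 4 h, but its 0 h and 4 h libraries overlapped. The ratio of PIF1 to NOP5-2 was 0.770, 0.771 and 0.448 in the 0 h libraries, so that the third 0 h library was low for PIF1 relative to NOP5-2 as well. Its means were 0.688 ± 0.0328 at 4 h, 0.448 ± 0.0265 at 24 h and 0.502 ± 0.0355 at 7 d. In the box C/D core, NOP56 (Ls1g29280.1), the partner of NOP58, had a ratio to NOP5-2 of 0.203 ± 0.0253, 0.230 ± 0.0154, 0.295 ± 0.00360 and 0.179 ± 0.00993. The ratio was higher in each 24 h library than in any other library, while the 0 h and 7 d libraries overlapped.

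**Figure D3:**
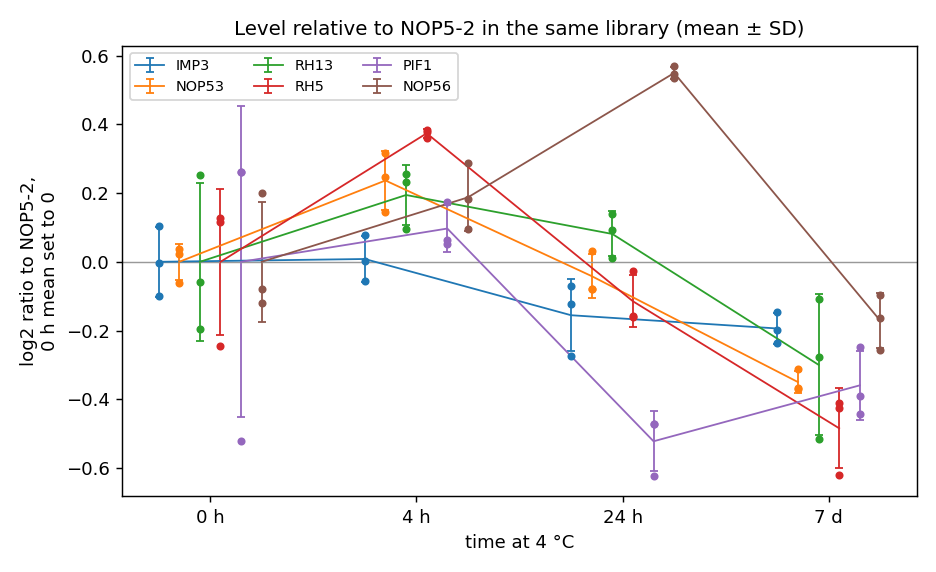
Log2 ratio of each gene to NOP5-2 in the same library, with the mean of the 0 h libraries of each gene set to 0, by time at 4 °C. Points are libraries, and lines and bars are the mean ± SD of 3 replicates. Each member shown has its highest mean at 4 h, but only for RH5 and NOP53 is every 4 h library above all others. NOP56 peaks at 24 h, and RH5 is lowest at 7 d.

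Over all 12 libraries the 15 pairs of members correlated at r = 0.82 to 0.99 (log2(CPM + 1), median 0.93), values that the common choice by time-course sets. Deviations from the time-point means correlated at -0.13 to 0.86 (median 0.53, with 14 of 15 pairs above 0). These points share their libraries, and the median was 0.43 without the third 0 h library and 0.32 after TMM scaling. The closest pair was NOP5-2 and NOP53, at 0.86 (0.84 without that library and 0.87 after TMM scaling). In the first 24 h library all 6 genes had their highest value of that time-point, under either scaling.

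The other genes of the pathway were taken from the part of the study's gene descriptions at hand, which covers COR genes of linkage groups 0 to 3 in full and part of group 4. They numbered 29, all tested. Of these, 19 were in G3, 8 in G2 (peak at 24 h), and 1 each in G4 and G5, so that their values against 0 h and their order over the cold time-points follow from the study's choice on these samples. For the G2 genes, a 24 h level above that at 4 h is set by the group itself. At 24 h against 4 h all 29 were above 0 on the log2 scale, though RH20, near the floor, by only 0.06. Of the 29, 24 lay past an adjusted p of 0.01 (25 with edgeR and 26 with DESeq2). These counts are a description, and nothing is read from them against all genes. Their median was 0.69 and the members' 0.65, against -0.01 for all genes.

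By role, all 5 snoRNP genes lay past that threshold, with log2 differences of 0.50 to 1.21 at 24 h against 4 h. NOP56 went from 20.6 ± 1.99 to 48.9 ± 5.28 CPM (log2 1.21), the largest step of the pathway genes and larger than that of its partner NOP5-2. Nucleolin 2, a nucleolar RNA-binding protein, went from 433 ± 4.97 to 788 ± 109 CPM (log2 0.85). The 3 H/ACA subunit genes, which belong to the snoRNPs that make pseudouridine in rRNA, had differences of 0.50 to 0.71.

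Of the 9 small-subunit genes, 7 lay past it. WDR43 (Ls1g33521.1), a homolog of yeast Utp5 in the small-subunit processome, went from 21.6 ± 2.28 to 45.6 ± 4.86 CPM (log2 1.04). The RNA 3'-terminal phosphate cyclase-like gene (Ls4g134160.1), related to the yeast processome protein Rcl1, was higher by 0.95. The U3-associated gene Ls2g52561.1 (log2 0.22) and PCN (log2 0.14) had smaller steps than any member.

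Of the 7 large-subunit genes, 6 lay past it. The 28S rRNA methyltransferase gene Ls2g49000.1 went from 45.6 ± 1.91 to 97.3 ± 7.81 CPM (log2 1.07), and SBDS, needed for the last steps of large-subunit maturation, was higher by 0.85. The MKI67 FHA domain-interacting phosphoprotein gene, just outside the choice of members, was the one short of it, with 0.58. In the exosome, RRP45B was higher by 0.84, while RRP41-like had 0.38. Among the 6 other RNA helicases 5 lay past it, led by RH57 with 0.79 and RH16 with 0.70. RH20 (0.06) was near the floor, with means of 0.0709 CPM at 4 h and 0.115 CPM at 24 h, so its step cannot be read. From 0.949 CPM at 0 h it was lower at each cold time-point, with log2 values of -0.81, -0.75 and -0.83 in order of time. The other DNA helicase, RTEL1, an unwinder of telomeric DNA structures, was higher by 0.66 (SE 0.134). PIF1 had 0.27, with an SE of 0.204, and of 0.0828 without the third 0 h library.

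From 24 h to 7 d the pathway genes were more varied than the members. Of the 29, 20 had a value above 0 and 9 below, 11 below after TMM scaling, from -0.28 for esf1 to 1.18 for the H/ACA subunit gene Ls2g112741.1, with a median of 0.19. The median of all genes over this interval was 0.11 in CPM and 0.01 after TMM scaling. The members ran from 0.30 to 0.84, with a median of 0.50, as their choice from G3 sets. NOP5-2 had 0.68 here and its partner NOP56 -0.04. The 6 other RNA helicases lay between -0.08 and 0.19, so that RH13 with 0.30 and RH5 with 0.31 had higher values than any of them in CPM. After TMM scaling these were 0.18 and 0.19.

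The descriptions at hand held 3 genes for cytosolic ribosomal proteins, L26-1 and 2 for L37-1, with another course than most members. They had log2 values of 0.06 to 0.29 at 24 h against 4 h, and 0 of them lay past an adjusted p of 0.01 with limma, edgeR or DESeq2. An unadjusted p under 0.05 was found for 0 of them with limma and for 2 with each of the count tests. The share of all genes under that value was not counted, so nothing is read from these numbers. They too were in G3. At 7 d against 24 h they had 0.85 to 0.93. Their summed level was 218 to 293, 269 to 287, 314 to 340 and 552 to 675 CPM in order of time. PIF1 was the member with the most similar pair of steps (0.27 and 0.84), and the assembly factors NOP5-2, IMP3, NOP53 and RH13 had larger first steps than any of the 3. Most of the other pathway genes had the larger step first. Some did not, such as RRP41-like (0.38, then 0.86) and PCN (0.14, then 0.60), so this course was not particular to ribosomal protein genes.

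**Figure D4:**
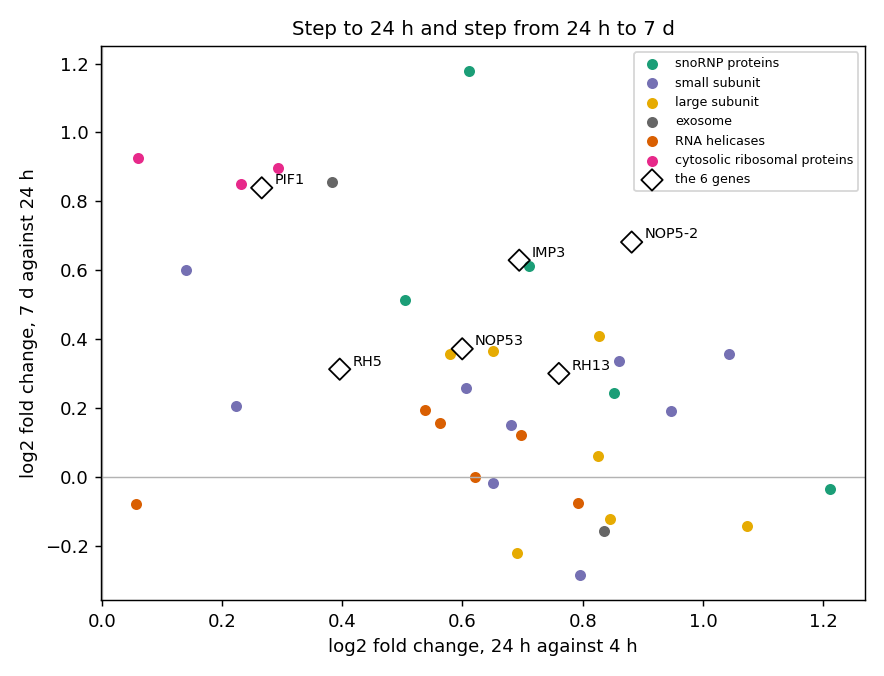
Log2 fold change at 24 h against 4 h (horizontal) and at 7 d against 24 h (vertical) for the 6 genes (diamonds), the 29 other pathway genes (points coloured by role) and 3 genes for cytosolic ribosomal proteins. All points lie to the right of 0, the ribosomal protein genes lie at 0.06 to 0.29 on the horizontal and 0.85 to 0.93 on the vertical axis near PIF1, and NOP56 lies far right at 1.21 with -0.04 on the vertical axis.

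The tissue was bulk, so that fewer cells of a type and less RNA per cell cannot be told apart. Genes that mark dividing cells were given beside the members because such cells make many ribosomes. The summed level of 5 of them was 111 to 125, 113 to 131, 51.4 to 68.2 and 89.7 to 103 CPM in the same order, and none was at 0 in every library. Within the list, the 3 histone H2B genes were lower at 24 h than at 4 h, with log2 values of -1.41 to -1.10, while DNA polymerase epsilon subunit B had 0.68 and origin recognition complex subunit 2 had 0.14. Of the H2B genes, 2 belong to G5, the COR genes most suppressed at 24 h, so that the low of the list total at 24 h is in part set by the study's grouping. The part of these cells in the members' levels was not tested. The photosynthetic leaf list given above was lower at 7 d than at 24 h, and the part of this difference in the CPM of the members was not tested beyond the TMM values given beside them.

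By likeness of course, the genes closest to the members over the 12 libraries were Ls7g36181.3 and Ls5g179901.3, with a median r of 0.98 with the 6 genes in both cases. They came first of the 19686 genes that averaged 1 CPM or more, and the first 5 had a median r of 0.975 to 0.982. None of these 5 was in the part of the gene descriptions at hand. The first described gene was that for the lysine methyltransferase METTL21A (Ls3g109781.1), in place 9 with 0.974. The closest of the other pathway genes listed here, WDR43, was in place 31. Of the 28 listed genes that were ranked, 19 were among the first 1000 genes, which make up 5.08% of those compared. The members and the pathway genes were both taken from COR genes grouped by their course in these libraries, so this likeness follows largely from that choice.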

How the data were processed

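Reads of 12 lettuce libraries were mapped by the authors with STAR 2.5.2 and counted per gene with featureCounts, and the deposited values are CPM, reads per 1000000 over the 23933 genes. The strandedness and handling of reads shared by near-identical copies were not given in the sources used here. All values (100%) were whole multiples of 1 read within 0.01, so reads were recovered for edgeR 4.0.16 and DESeq2 1.42.0. The main test was limma 3.58.1 (R 4.3.3, lmFit and eBayes) on log2(CPM + 1), with 4 time-points in one fit of 12 samples, for the 22306 genes with at least 0.5 CPM in 2 samples, with Benjamini-Hochberg adjustment over all of them. A gene passed at an adjusted p of at most 0.01, and was called if it also changed 2-fold. The fit was tested on simulated data for 24 h against 4 h (21873 genes), where limma recovered 200 of 200 changed genes with 4 false calls. Recovery at the size of the members' own steps, log2 0.27 for PIF1 to 0.88 for NOP5-2, was not tested.

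The members and lists were chosen with earlier results of these data known, and from COR genes that the study grouped by clustering these libraries, so counts of genes past the threshold are descriptions, also at 24 h against 4 h. Named were the 6 genes, the 2 other genes of each list with the largest change at 24 h against 4 h (1 for lists of 2), any list gene that fell, the 5 genes most like the members, and the study's 2 reference genes. The U3-associated, PCN, phosphoprotein, RH20, esf1 and H/ACA genes were named after their values were seen. Replicates are those the labels number, which the study calls biological, and nothing used here says whether each was a separate plant or a pool, so p-values measure only the spread between these samples. Descriptions came from the study's gene table, whose fold changes and false discovery rates were not used. Alternatives were pseudocount, filter, scaling, tool, replicate block, samples in the fit and each replicate left out. Those added after seeing the data were an adjusted p of 0.05 and TMM scaling without the third 0 h library. No identifier matched the reference annotation at hand, so sequences, positions and lengths are not given.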

Additional observations from a re-analysis of the deposited data

How the results depend on the processing

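At 24 h against 4 h the number of members passing was 4, and 4 or 5 under every alternative, with 5 for DESeq2 and for an adjusted p of 0.05. It ran from 4 to 5 when single replicates were left out. The number of other pathway genes passing was 24, with 22 to 26 under the other settings and 17 to 25 without single replicates. Over all genes 4685 passed, 7458 at an adjusted p of 0.05 (chosen after seeing the data), and 3137 to 6144 without single replicates. The median log2 fold change of the members at 7 d against 0 h was 1.35, and it was 1.19 with TMM scaling, 1.16 with the scaling of DESeq2 (RLE), 1.21 with edgeR, 1.18 with DESeq2, 1.12 with TMM scaling and without the third 0 h library, and 1.25 to 1.46 without single replicates. The lower values under other scalings follow from their factors, which were above 1 in all 7 d libraries and lowest in the third 0 h library. PIF1 changed sign at 4 h against 0 h without the third 0 h library, to -0.10 in CPM and -0.10 with TMM scaling, and ran from -0.10 to 0.39 without single replicates (0.22 with all). The deviations of the 18 same-numbered pairs correlated at -0.22 to 0.19 with 6 over 0.1. Pairs of unlike number were not set beside them, so whether the replicate numbers pair the samples was not decided. With the number as a replicate block 4 members, 25 other pathway genes and 4399 of all genes passed, and the median 7 d change was 1.35. For PIF1 from 4 h to 24 h, the SE was 0.204 with all libraries and 0.0828 without the third 0 h library.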
